A study of Mus musculus with 50 samples.

Results

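The 7 segments described here are the CD45- (non-immune) part of injured lung regions from 2 young mice given ozone, 1 carrying a surfactant protein C mutation and 1 wild type. They were taken by the labels alone, as the CD45- segments of injured regions 1, 2 and 3 of the young mutant and of regions 2, 3, 4 and 9 of the young wild type, out of 48 tissue segments in all. The tested animal was labelled SP-CI73T mutant and was 12 weeks old. Its counterpart was labelled SP-C wild type and was also 12 weeks old. Both had breathed ozone at 0.8 ppm for 3 h, and their lungs were taken at 72 h. The study also holds an SP-CI73T mutant of 80 weeks after the same ozone exposure and a wild type of 12 weeks after air, with injured, peri-injured or healthy regions each divided into a CD45- and a CD68+ segment. The sources used here do not say how regions were graded as injured or what drives the mutant allele.

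Surfactant protein C is a small hydrophobic protein that alveolar type 2 epithelial cells make, process and secrete with the lipid film that keeps alveoli open. The I73T change, known from familial interstitial lung disease, leads to mistrafficking of the proprotein in these cells. Inhaled ozone oxidises the airway lining and the epithelium at the entrance to the alveoli, and the type 2 cells are among those that restore the surface afterwards. CD45 is carried by leukocytes and CD68 by macrophages, so a CD45- segment holds epithelium, endothelium and stroma in proportions that the counts do not give.

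Each arm was 1 lung section under 1 study number, taken here as 1 animal. Both mutant sections lay on 1 slide and were collected on 1 plate, and both wild type sections lay on the other slide and plate. Genotype, animal, slide and plate therefore cannot be told apart in any difference between the young mutant and the young wild type. Regions of 1 section are not replicates of a genotype, so no p-value is given for that difference. It is reported by its size and by whether the regions of the sections overlap.

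The readout was GeoMx whole transcriptome profiling, in which oligonucleotide tags are released by light from a drawn segment and counted by sequencing. The deposited files name each tag by a readout identifier (RTS number) and do not pair it with a gene, so identifiers stand in place of gene names and the surfactant protein C tag could not be checked against the genotype labels. For the same reason, staining-defined cell types could not be checked against marker genes. Levels are CPM, or counts scaled to 1000000 per segment, each library size adjusted by TMM factors over all 48 segments. Log2 differences are means over regions of log2 CPM with a prior count of 2, mutant minus wild type, which understates the change of low identifiers. An identifier passed the rule if this difference had a size of at least 1 and no mutant region overlapped a wild type region.

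The mutant segments held 188948, 210491 and 74468 counts, and the wild type segments 300708, 162958, 167181 and 144301 counts. The median identifier of a segment had 3 to 9 counts, and 4090 of the 20175 identifiers analysed passed the filter on low counts. The 10 most abundant identifiers took 7.57% ± 0.195 of the counts in mutant segments (SD, n = 3 regions) and 6.22% ± 0.312 in wild type segments (SD, n = 4 regions), with no overlap. Among the 10 in every mutant segment was RTS0076055, which alone held 2.54% ± 0.114 of counts there, against 0.0312% ± 0.0112 in wild type segments. Spearman's rho between segments over the 4090 identifiers was 0.474 to 0.683 for the 3 pairs within the mutant and 0.592 to 0.691 for the 6 pairs within the wild type. For the 12 pairs across sections it was 0.424 to 0.642, a range that overlaps both.

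In injured CD45- tissue, 31 identifiers were higher in the mutant than in the wild type by the rule, 0.758% of those kept. Another 63 were lower in the mutant, 1.54% of those kept. The median difference of the 31 was 1.25, with a range of 1.03 to 6.30, and that of the 63 was -1.24, with a range of -2.34 to -1.01. Over all 4090 identifiers the median difference was -0.06. Most called differences were modest: 19 of the 31 and 46 of the 63 had a size under 1.5, and 5 in each direction had a size of 2 or more. The plot of difference against level shows that the 5 largest sizes among called identifiers were all upward in the mutant.

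**Figure D1:**
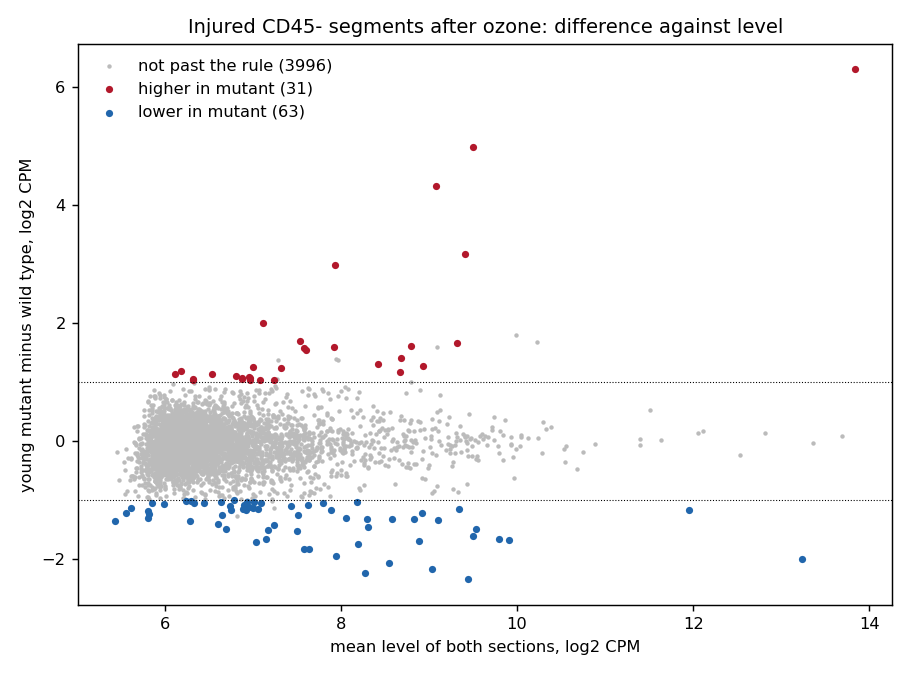
Log2 difference (young mutant minus wild type, injured CD45- segments, y axis) against mean level (x axis, log2 CPM) for 4090 identifiers, 1 point each; dotted lines mark a size of 1. The 31 red points reach 6.30, while the 63 blue points end at -2.34.

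Without the demand on size, 196 identifiers (4.79%) lay higher in every mutant region than in every wild type region, and 306 (7.48%) lay lower. A further 10 identifiers had a size of at least 1 but overlapping regions. The threshold cuts through a continuous tail. The smallest size called higher was 1.03 and the largest upward size not reaching the threshold was 0.999, while the matching sizes for lower identifiers were 1.01 and 0.979. In 26 of the 31 and 57 of the 63, every region of the higher section had at least 10 counts. Every region of the lower section had under 10 counts in 3 of the 31 and 13 of the 63. The count of higher identifiers was 63 without mutant region 3, the shallowest segment, and the count of lower identifiers was 109 without mutant region 2. A prior count of 10 left 12 higher and 19 lower.

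RTS0076055 had the largest difference. It stood at 31277, 29484 and 26317 CPM in the mutant injured regions, against 436, 255, 241 and 511 CPM in the wild type injured regions. All 3 mutant regions were far above all 4 wild type regions, and this tag alone took 2.54% ± 0.114 of all counts in the mutant segments (SD, n = 3 regions). The difference was 6.30 on the log2 scale, or 78.5-fold. It rested on 1850 to 5183 counts per mutant region and 35 to 113 per wild type region.

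RTS0081029 was the next largest among identifiers with at least 10 counts in every mutant region. It stood at 1525, 1741 and 1024 CPM in the mutant injured regions, against 7.72, 20.7, 20.7 and 32.5 CPM in the wild type injured regions. The wild type values were 2 to 4 counts per region, 12 in all, which is near the limit of these libraries. The difference of 4.98 is therefore held down by the prior count: it was 3.37 with a prior count of 10, 5.80 with 0.5, and 6.14 as the ratio of section sums.

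The largest downward differences were about 5-fold. RTS0064439 stood at 236, 324 and 114 CPM in the mutant injured regions, against 1335, 1143, 1254 and 941 CPM in the wild type injured regions. It was 5.07-fold lower in the mutant, a log2 difference of -2.34, and the lowest wild type region was above the highest mutant region. RTS0069974 stood at 130, 114 and 42.7 CPM in the mutant, against 698, 475, 537 and 373 CPM in the wild type, a log2 difference of -2.23. Its value was -1.54 with a prior count of 10, since the mutant section held 44 counts of it in all.

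RTS0076370 was singled out after its values were seen, because it was the most abundant identifier in 3 of the 4 wild type injured segments. It stood at 4470, 5376 and 2176 CPM in the mutant injured regions, against 19288, 12237, 15024 and 14565 CPM in the wild type injured regions. It was 4.01-fold lower in the mutant, the fifth lowest difference of all. In wild type air CD45- regions it averaged 5901 ± 2266 CPM (SD, n = 4), with a range of 3920 to 8598 that overlaps the mutant injured regions. Wild type peri-injured regions spanned 6754 to 20040 CPM and mutant ones 4494 to 5710 CPM, a difference of -1.15. The contrast thus lay with the wild type ozone section, and the wild type air section did not share its high level. RTS0067799, chosen in the same way as another very abundant tag, averaged 13584 ± 611 CPM in mutant regions and 12827 ± 1160 CPM in wild type regions (SD, n = 3 and 4), which overlap. The contrast at the top of the abundance range was thus between particular identifiers and was not shared by all abundant ones.

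**Figure D2:**
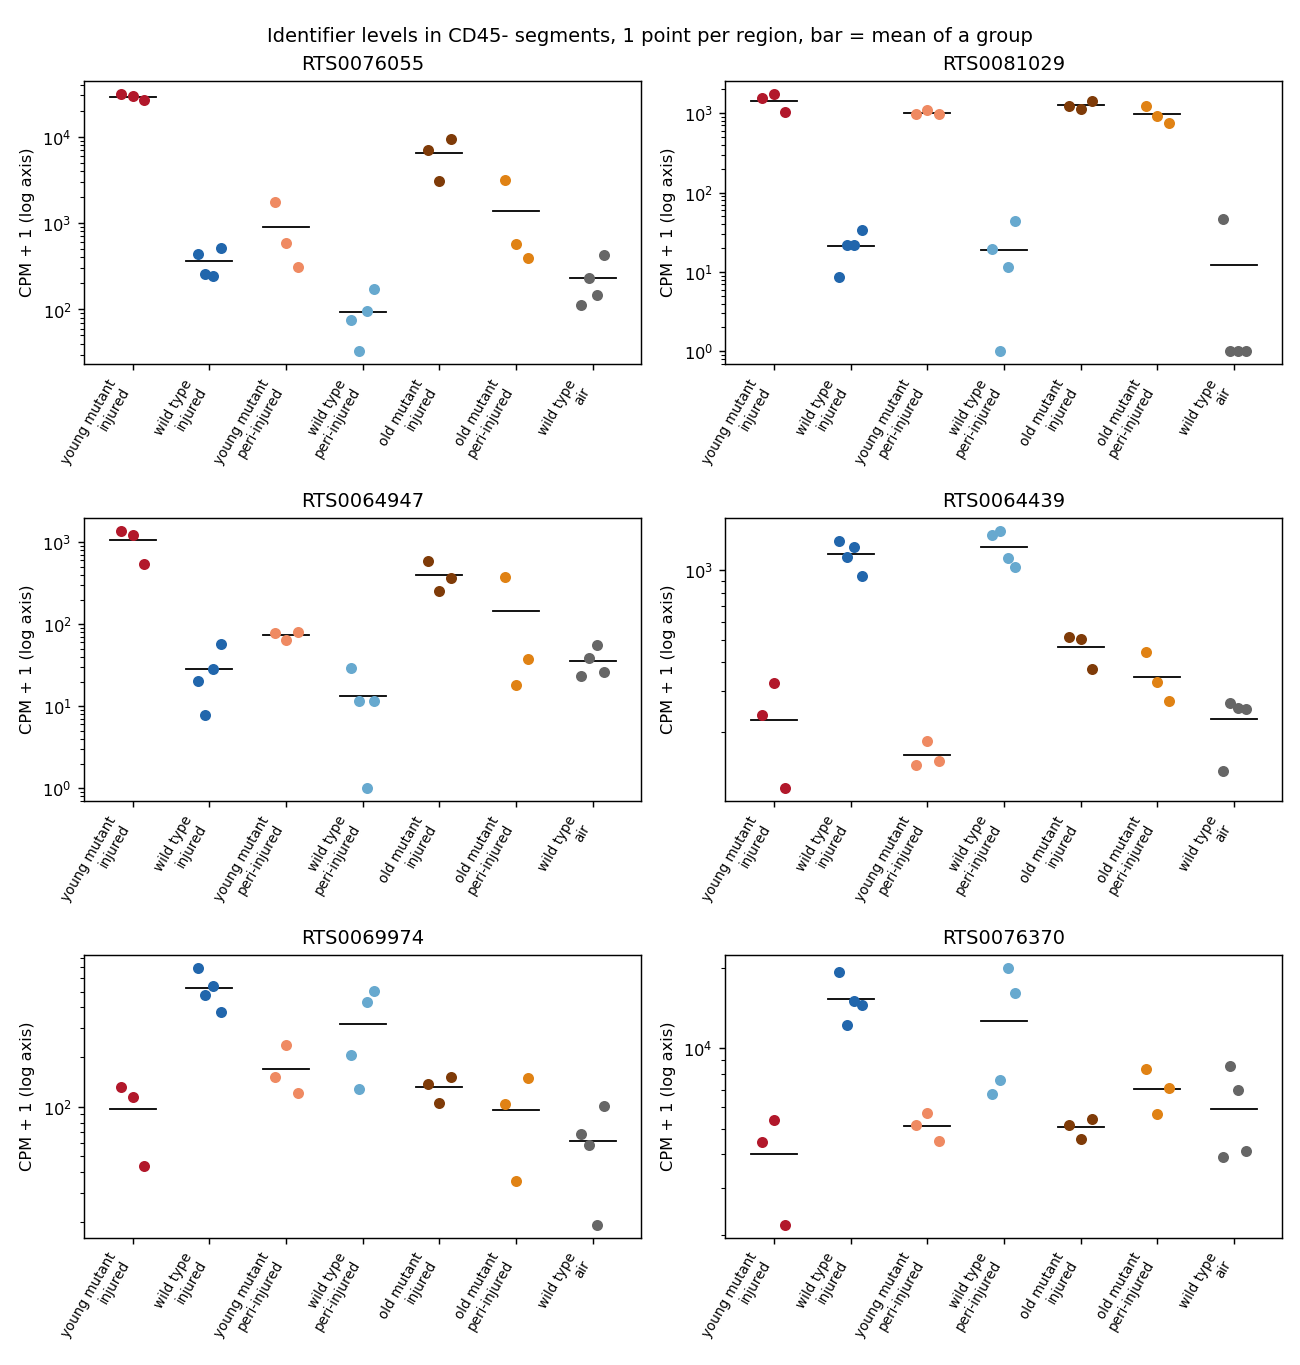
CPM plus 1 (log y axes, which differ between panels) of 6 identifiers in CD45- segments of 7 groups, 1 point per region, with a bar at the group mean. Of these, 3 are higher and 3 lower in the young mutant injured regions than in the wild type injured regions, with no overlap; air regions show the wild type without ozone.

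The peri-injured CD45- segments of the same 2 animals, 3 mutant and 4 wild type regions, show whether the contrast belonged to the injured areas. By the same rule, 22 identifiers (0.538%) were higher and 74 (1.81%) lower in the mutant there. Of the 31 identifiers higher in injured tissue, 10 passed the rule in peri-injured tissue, which is 32.3% of the 31 and 45.5% of the 22. Of the 63 lower ones, 32 passed it, which is 50.8% of the 63 and 43.2% of the 74. No identifier passed in opposite directions. The sign was shared by 30 of the 31, against 42.0% of all 4090 identifiers that were higher in the mutant there, and by 59 of the 63, against 58.0% of all that were lower.

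The sizes outside the injured area differed between the lists. The median peri-injured difference was 0.71 for the 31 higher identifiers, against 1.25 in injured tissue, and -1.004 for the 63 lower ones, against -1.24 in injured tissue. The injured difference was the larger in 26 of the 31 and in 41 of the 63, against 47.6% of all identifiers. Since the lists were chosen for a large injured difference, a larger value there is in part fixed by the choice. The plot of injured against peri-injured differences shows that most called identifiers kept their sign outside the injured area, while fewer passed the rule there.

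**Figure D3:**
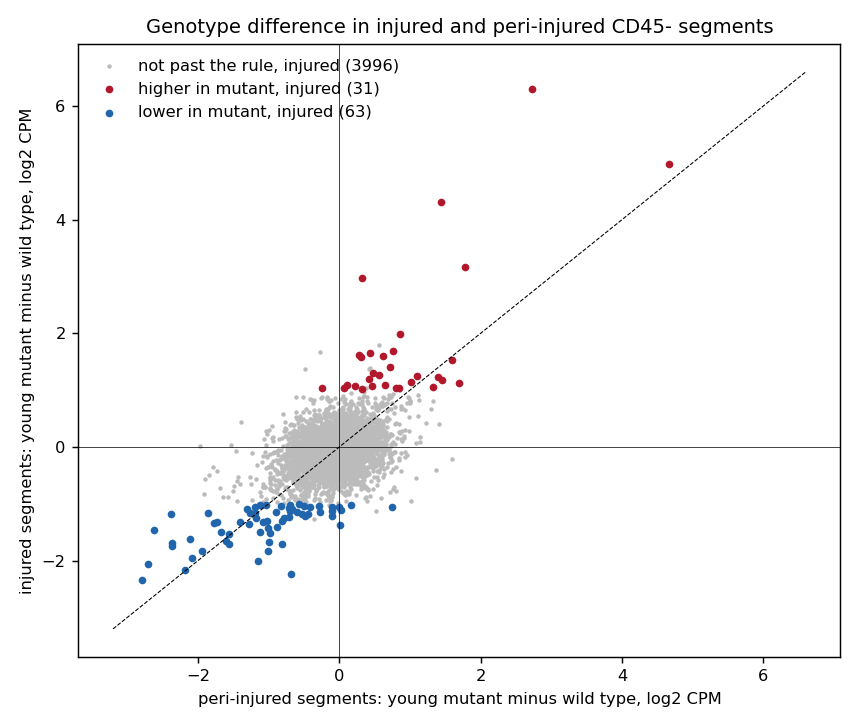
Log2 difference (young mutant minus wild type) in injured (y axis) against peri-injured (x axis) CD45- segments for 4090 identifiers, with the line of equal difference dashed. Of the red points, 30 of 31 lie right of 0, and of the blue points 59 of 63 lie left of 0.

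RTS0081029 differed by a like size in both states. It averaged 1011 ± 62.6 CPM in mutant peri-injured regions and 17.9 ± 18.1 CPM in wild type peri-injured regions (SD, n = 3 and 4), a difference of 4.66. RTS0064439 differed by -2.80 in peri-injured tissue, with 159 ± 20.4 CPM in the mutant and 1262 ± 217 CPM in the wild type. For both of these the injured and peri-injured levels of 1 section lay close together. RTS0069974 differed by -0.69 in peri-injured tissue, with 169 ± 60.9 CPM in the mutant and 316 ± 178 CPM in the wild type, which overlap.

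RTS0076055 behaved otherwise. In peri-injured regions it stood at 1771, 585 and 310 CPM in the mutant, against 74.8, 31.7, 94.9 and 170 CPM in the wild type. The sections did not overlap, and the difference was 2.73. Injured regions exceeded peri-injured regions by 5.34 in the mutant and by 1.77 in the wild type, so this tag was higher in injured tissue of both animals and the gap between the injury differences was 3.56.

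The difference of differences was then taken for every identifier: injured minus peri-injured in the mutant, less the same in the wild type. By a size of at least 1, with no overlap in the section that moved, it was higher in the mutant for 42 identifiers (1.03%) and lower for 29 (0.709%). In 40 of the 42, the mutant's injured regions lay above its peri-injured regions. In 15 of the 29 the mutant's injured regions lay below its peri-injured regions, and in the other 14 the wild type's lay above. Low identifiers can pass this rule by counting error alone, so these counts are a description only: 17 of the 42 and 19 of the 29 had at least 10 counts in every region of their highest group. A prior count of 10 left 7 and 1, and a mean of at least 200 CPM left 9 and 0. Without mutant injured region 3 the upward count was 95, without mutant peri-injured region 4 it was 83, and the downward count was 45 without mutant injured region 1 and 49 without region 2. The upward size reached 2 in 3 identifiers, and no downward size did.

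RTS0064947 was the second of the upward identifiers by the naming rule. It stood at 1382, 1229 and 541 CPM in mutant injured regions, against 19.3, 6.89, 27.6 and 56.8 CPM in wild type injured regions. In peri-injured regions it averaged 73.6 ± 9.05 CPM in the mutant and 12.3 ± 11.6 CPM in the wild type (SD, n = 3 and 4). The difference of differences was 2.88, since injured exceeded peri-injured regions by 3.34 in the mutant and by 0.46 in the wild type. The injured regions held 477 counts of it in the mutant and 17 in the wild type.

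The 2 downward identifiers named by the rule each had 1 region apart from the rest. RTS0072096 stood at 149, 127 and 1381 CPM in mutant peri-injured regions, and RTS0062314 at 127, 103 and 561 CPM, with region 6 the high one for both. Without it, in a setting chosen after seeing the data, the difference of differences was -0.77 for RTS0072096 and -0.88 for RTS0062314, and neither passed. In injured tissue RTS0072096 averaged 100 ± 33.7 CPM in the mutant and 117 ± 14.5 CPM in the wild type, which overlap. RTS0062314 averaged 63.2 ± 25.0 CPM in mutant and 138 ± 79.2 CPM in wild type injured regions, which also overlap.

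The CD68+ segments of the same injured regions are separate areas drawn on the macrophage stain, on the same slides and plates. They were shallower, with 40744 ± 19914 counts in the mutant and 63250 ± 11153 in the wild type (SD, n = 3 and 4), and 531 identifiers were kept in both segment types. Among these, 25 (4.71%) were higher and 48 (9.04%) lower in the mutant CD68+ segments. Of the 16 identifiers higher in CD45- tissue that could be read, 14 also passed in CD68+ segments and all 16 had the same sign. Of the 25 lower ones, 17 passed and all 25 had the same sign. Over all 531 identifiers the median CD68+ difference was -0.27, so a downward sign was the more common one there. The median was 2.18 for the 16 and -1.95 for the 25. RTS0076055 differed by 7.56 and RTS0081029 by 4.90 in CD68+ segments, so neither contrast was limited to the CD45- side. On the CD68+ side of young mutant injured regions RTS0076055 took 10.6% ± 4.64 of counts, against 2.54% ± 0.114 on the CD45- side. For RTS0064947 the means were 2694 and 1051 CPM, and for RTS0081029 they were 1284 and 1430 CPM. RTS0064439 was lower on the CD68+ side in wild type injured regions, at 393 against 1168 CPM. RTS0076370 took 3.86% of counts in air CD68+ and 0.655% in air CD45- segments, but overlapped in wild type injured regions. Which cells carried these tags was not tested. RNA of neighbouring cells within a segment, fewer cells of a type and less RNA per cell cannot be told apart in such counts.

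The remaining animals show where the young wild type ozone section stood beside them. The 31 higher identifiers without RTS0076055 summed to 1.06% ± 0.0950 of counts in young mutant injured segments and 0.254% ± 0.0191 in wild type injured segments (SD, n = 3 and 4). Their sum was 0.778% ± 0.0191 in old mutant injured segments (n = 3) and 0.494% ± 0.0445 in air segments (n = 4). Peri-injured segments gave 0.649% ± 0.0124 in the young mutant, 0.640% ± 0.122 in the old mutant and 0.285% ± 0.0311 in the wild type, and the old mutant peri-injured values overlapped those of air. Since the 31 were chosen as high in the young mutant and low in wild type ozone tissue, those groups are set apart by the choice, and no order of the other groups is read from it. The median level of the 31 was 236 CPM in young mutant injured, 194 CPM in old mutant injured, 114 CPM in air and 71.0 CPM in wild type ozone injured regions.

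The 63 lower identifiers summed to 1.19% ± 0.322 of counts in young mutant injured segments and 3.73% ± 0.501 in wild type injured segments. In old mutant injured segments the sum was 1.65% ± 0.0647, and in air segments it was 1.64% ± 0.284. Peri-injured segments gave 1.22% ± 0.108 in the young mutant and 3.41% ± 0.592 in the wild type. Without RTS0076370 the sums were 0.848% ± 0.197 in young mutant injured, 1.20% ± 0.0964 in old mutant injured, 2.41% ± 0.270 in wild type injured and 0.982% ± 0.0647 in air segments. The place of the wild type injured segments above the young mutant ones is fixed by the choice of the 63. The old mutant and air segments were not used in it. A list chosen as high in wild type injured segments can stand lower in other groups for that reason alone. No order of the other groups is therefore read from these sums. RTS0064439 averaged 225 ± 106 CPM in young mutant injured and 465 ± 77.8 CPM in old mutant injured regions, against 1168 ± 171 CPM in wild type ozone injured and 226 ± 61.2 CPM in air regions.

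**Figure D4:**
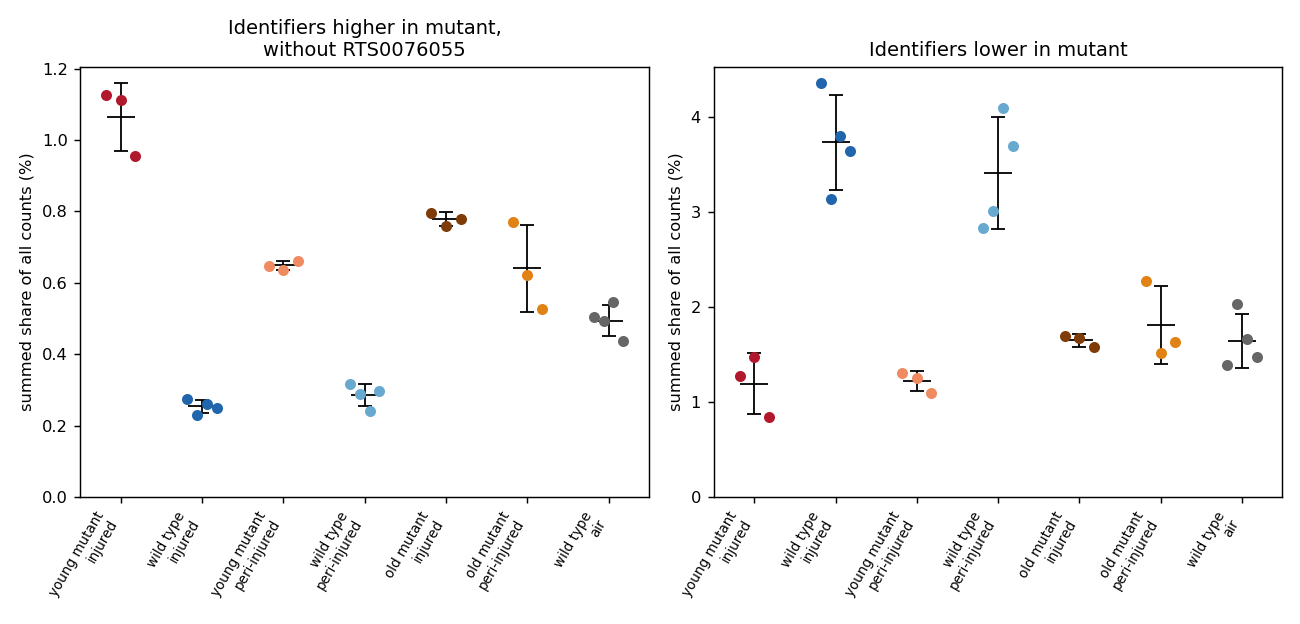
Summed share of all counts (y axes, percent) in CD45- segments of 7 groups for the 30 identifiers higher in the young mutant other than RTS0076055 (left) and the 63 lower ones (right), 1 point per region, mean and SD in black. Air regions average 0.494% on the left and 1.64% on the right, where wild type ozone injured regions average 3.73%.

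Setting the old mutant's 6 CD45- segments against the 4 air segments compares none of the 7 segments, though age and ozone then change with genotype and plate. The 4090 identifiers were still those kept by their counts in the 7 segments, and the scaling used all 48. By the rule 130 identifiers (3.18%) were higher and 0 (0%) lower in the old mutant. The air segments were shallow and the median of all identifiers was 0.33. Of the 31 higher identifiers, 5 passed in this comparison, and of the 63 lower ones 0 did, while 2 passed it upward. The list medians were 0.54 and 0.32, so the 63 had no downward median there. RTS0081029 was among the 5: it stood at 1256 ± 155 CPM in old mutant injured and 968 ± 251 CPM in old mutant peri-injured regions (SD, n = 3 each), while the 4 air regions held 2 counts of it in all. It thus had at least 53 counts in each of the 12 mutant CD45- segments and at most 4 counts in each of the 12 wild type ones, which lay on separate slides and plates.

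RTS0076055 had a wider spread among mutants. It averaged 29026 ± 2511 CPM in young mutant injured and 6535 ± 3201 CPM in old mutant injured regions, against 361 ± 134 CPM in wild type ozone injured and 228 ± 141 CPM in air regions. The old mutant's peri-injured regions ranged over 394 to 3131 CPM, and their lowest overlapped the air and wild type ozone injured regions.

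A test across animals was possible only for both mutants together. Injured CD45- counts were summed per animal and the 2 mutant sums were set against the 1 wild type sum by edgeR's quasi-likelihood test, with 1 residual degree of freedom. Of 18442 identifiers, 95 (0.515%) were higher and 98 (0.531%) lower in the mutants at an adjusted p under 0.05, and 1278 had an unadjusted p under 0.05. The wild type arm is 1 sum, and genotype still cannot be told apart from slide and plate, so an adjusted p here does not speak to genotype. The spread in this test was borrowed from all identifiers, and the calls depended on that: with upper quartile factors the test called 0 in each direction, with 855 at an unadjusted p under 0.05. DESeq2 called 9 higher and 9 lower. With the air section added as a second wild type animal, 25 were higher and 13 lower. Without young mutant region 2 the edgeR test called 55 higher, and without old mutant region 12 it called 61 lower.

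RTS0081029 was higher in the mutants by 6.29 ± 0.397 (SE) on the log2 scale in this test, and RTS0076055 by 5.63 ± 0.234 (SE), each in 2 of 2 mutant sums. The SEs given for this test were derived, as the size of the log2 fold change divided by the square root of the test's F statistic. They rest on the borrowed spread and do not measure the spread between animals. RTS0076055 stood at 25787 CPM in the young and 5841 CPM in the old mutant sum, against 315 CPM in the wild type sum. For RTS0081029 the sums stood at 1332, 1110 and 15.3 CPM in the same order. Both passed in the edgeR test as fitted and in 15 of 16 alternatives. Most alternatives only left 1 region out of the same sums, and both identifiers were named for passing with a large size here. The tally is therefore no independent support. With upper quartile factors neither passed, at an edgeR adjusted p of 0.564 for RTS0081029 and 0.916 for RTS0076055, although the log2 fold changes there were 6.23 and 5.59. Among the lower identifiers, RTS0070195 had a log2 fold change of -2.31 ± 0.341 (SE). It averaged 55.8 ± 19.3 CPM in young mutant and 40.6 ± 31.7 CPM in old mutant injured regions, against 227 ± 32.0 CPM in wild type injured regions (SD, n = 3, 3 and 4). The wild type air regions, outside this fit, were as low as the mutants, at 26.2 ± 29.0 CPM (SD, n = 4). RTS0069974 had a log2 fold change of -2.20 ± 0.307 (SE). It averaged 95.5 ± 46.5 CPM in young mutant, 131 ± 23.3 CPM in old mutant and 521 ± 136 CPM in wild type injured regions. In wild type air regions it was also low, at 60.8 ± 33.9 CPM (SD, n = 4). With upper quartile factors both lost the call, at an edgeR adjusted p of 0.875 each, with log2 fold changes of -2.37 for RTS0070195 and -2.27 for RTS0069974. With the air section added the edgeR adjusted p was 0.0843 for RTS0070195, at a log2 fold change of -1.76, and 0.315 for RTS0069974, at -1.49. DESeq2 gave no adjusted p for RTS0070195.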

How the data were processed

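The deposited files hold whole-number counts per readout identifier, made with GeoMx NGS Pipeline version 2.3.4 per the file headers, which list more aligned reads than counts. The worksheets (other values: area, slide) were read for slide names. No gene table and no negative probes could be identified from them, so background was not subtracted. Of 20238 identifiers, 63 outside the main number range were left out. The air samples carry an ozone treatment label, and their titles were followed.

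Library sizes were scaled by TMM (edgeR 4.0.16, R 4.3.3) over 48 segments; CPM and log2 CPM (prior count 2) were computed from the deposited counts. Identifiers were kept by edgeR's filter (minimum count 10) over the 7 segments grouped by section, so an identifier could be kept through its higher section alone. The test on 3 sums used edgeR's quasi-likelihood fit with Benjamini-Hochberg adjustment, and DESeq2 1.42.0 as an alternative. SDs are over regions of 1 section, not over animals. Named identifiers are the 2 largest per direction with at least 10 counts in every region of the higher group. The regions and rules were chosen with earlier results of these data known. Replicate segments differed by more than sampling noise, with chi-square per degree of freedom of 1.35 to 2.63. Alternatives are listed at the end.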

Additional observations from a re-analysis of the deposited data

Results flagged for a closer look

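In 54 groups of 4 values tested, all from wild type CD45- segments, 4 had a sample far from the others. Chance alone gives about 1 in 20. The mutant groups, with 3 regions each, were too small for this check and were not tested. RTS0064439 stood at 135 CPM in region 8 of the wild type air CD45- segments, below the other 3. RTS0081029 stood at 45.1 CPM in the same region, which is 2 counts, with 0 counts in the others. RTS0072096 stood at 127 CPM in region 7 of the wild type peri-injured CD45- segments, above the others. Region 2 of the wild type injured CD45- segments held 300708 counts, the deepest of its group.

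Identifiers outside the number range analysed held 26 counts over the young mutant injured CD45- segments and 27 counts over the wild type injured ones. The no template controls held 0 of them, but only 4 and 229 counts in all, too few for such rare identifiers to appear. The sources used here do not say what these identifiers measure.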

How the results depend on the processing

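No paired analysis was possible because region numbers only name regions within a slide and the main comparison has 1 animal per arm and no test. Counts are given here as higher / lower in the young mutant in injured tissue (31 / 63 as reported), shared with peri-injured tissue (42), and injury dependence higher / lower (42 / 29). A prior count of 10 gave 12 / 19, 19 and 7 / 1. A prior count of 0.5 gave 51 / 101 and 74 / 54. A mean of at least 200 CPM gave 13 / 27, 26 and 9 / 0, and a size of at least 2 gave 5 / 5, 5 and 3 / 0. DESeq2 size factors gave 25 / 46 for injury dependence, no filter gave 122 / 210, and thinning to 74468 counts gave 92 higher. Leaving out 1 injured region at a time gave 29 to 63 / 62 to 109 in injured tissue. Leaving out 1 injured or 1 peri-injured region, the peri-injured ones chosen after seeing the data, gave 38 to 46 shared and 32 to 95 / 30 to 49 for injury dependence. The lowest upward count, 32, came without mutant peri-injured region 6.

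For the 3 sums (95 / 98), upper quartile factors gave 0 / 0, with an estimated prior of 3.33 degrees of freedom in place of an infinite one. DESeq2 gave 9 / 9, with 122 at an unadjusted p under 0.05, an adjusted p for 923 identifiers and none for 17519. Adding the air section gave 25 / 13. Leaving out identifiers with over 50% of their counts in 1 segment, a setting chosen after seeing the data, gave 61 / 58. Leaving out 1 region gave 55 to 114 / 61 to 104. Of 219 alternative values for named identifiers, 205 kept direction and call, 10 lost the call and 0 reversed. Another 4 kept the call but moved by more than the SD between regions. These identifiers were named for passing and the alternatives mostly reuse the same segments, so the tally is no independent support. RTS0062314 lost the call at a prior count of 10, with -0.997, and RTS0072096 with thinned counts, where its regions overlapped. RTS0081029 and RTS0069974 moved as given above. The median identifier had 3 to 9 counts a segment, which limits what can be read for low identifiers. RTS0076055 kept a difference of 6.45 with thinned counts.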
